A study of Mus musculus with 20 samples.

Results

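Cardiac fibroblasts given extra Hyal2 were set directly against cardiac fibroblasts given Cre to delete Hyal2, in 8 of the 20 RNA-seq libraries of the series. The 4 libraries labelled Hyal2 and the 4 labelled Cre, all without TGFB, were chosen by their labels, and the libraries of the same replicate number were paired. All 8 came from mouse cardiac fibroblasts at passage 2 that the treatment protocol describes as Hyal2 fl/fl, while the genotype label reads wild type C57BL/6J. The animals' age is not given in the sources used here. The cells were starved of serum for 24 h, exposed for 5 h to an adenovirus that carried either Cre recombinase, which removes exon 2 of the floxed Hyal2 gene, or Hyal2 itself, and then kept for 48 h in fresh medium. The protocol names bFGF and TGFB at 20 ng/mL for that medium, and its wording does not say whether the cultures without TGFB received bFGF. Replicates 1 and 2 are labelled female and replicates 3 and 4 male. Each replicate number carries 1 library name prefix in all groups, and what the prefix stands for is not stated. A virus carrying GFP was used in 4 further libraries without TGFB, which are shown beside some results and entered no main test.

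Hyal2 encodes a hyaluronidase anchored to the outer cell surface, which cuts high-molecular-weight hyaluronan into smaller pieces that other enzymes then degrade in lysosomes. Hyaluronan is a long sugar chain made at the plasma membrane by the hyaluronan synthases, and in the heart fibroblasts are a main source of it and of the surrounding collagen. Type I interferons act on nearly all cells through the receptor subunits Ifnar1 and Ifnar2. The receptor's signal activates a complex that holds Stat2 and Irf9 and binds a short DNA element, the interferon-stimulated response element, in the promoters of antiviral genes.

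Library totals were 41.4 to 105 M counts in the Cre group and 38.9 to 45.8 M in the Hyal2 group, so 3 counts correspond to between 0.0286 and 0.0771 CPM (a gene's count scaled to its library's total, the unit of every level given here). Of 28053 genes with a count in these libraries, 14901 had enough counts to be tested. All 11 fibroblast markers were among them, with a median log2 difference of -0.02. Of 15 heart muscle markers 2 were tested, Tnnt2 and Tnni3, with 1055 and 466 counts over the 8 libraries. Myh6, the heart muscle myosin, was the 1 marker of that list at 0 in every library. Markers of leukocytes and macrophages were present at a summed 240 to 629 CPM in the Cre libraries and 243 to 577 CPM in the Hyal2 libraries.

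The Hyal2 transcript lay at 12.6, 8.54, 13.8 and 7.79 CPM in Cre replicates 1 to 4. In the Hyal2 libraries it lay at 1239, 722, 407 and 1450 CPM. The groups did not overlap, and the lowest Hyal2 library was replicate 3. Means were 10.7 ± 2.96 CPM with Cre and 955 ± 476 CPM with the Hyal2 virus (SD, n = 4 each). The fold change fitted by edgeR over the pairs was 82.9, or 6.37 on the log2 scale (SE 0.62), with 6.62, 6.40, 4.88 and 7.53 in the 4 pairs. An exact permutation test of 4 libraries against 4 gave a two-sided p of 0.0286, the smallest that its 70 arrangements allow, and an exact sign permutation of the 4 pairs gave 0.125, also the smallest possible. In the paired edgeR fit over all genes its adjusted p was 0.162, above the threshold of 0.05. Without the replicate block it was 0.000985, and without replicate 3 it was 0.000632. In the 4 GFP libraries the gene lay at 42.3 ± 3.66 CPM (SD, n = 4). The counts cover the whole gene, so they do not show whether exon 2 was lost.

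**Figure D1:**
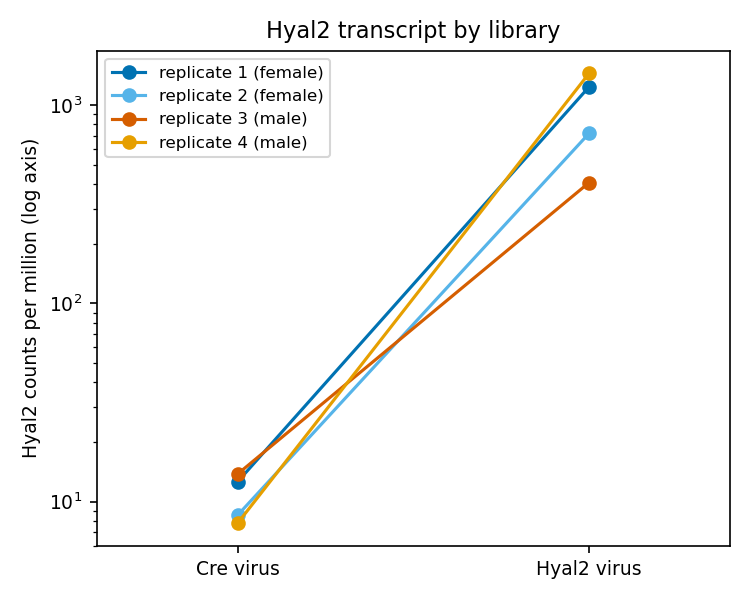
Hyal2 level in CPM by library on a log axis, with lines joining the Cre and Hyal2 virus libraries of the same replicate number. The Cre libraries lie between 7.79 and 13.8 CPM and the Hyal2 libraries between 407 and 1450 CPM.

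Antiviral and chemokine genes were among those lower with the Hyal2 virus than with the Cre virus. The 36 genes called lower held 9 of the 116 tested interferon genes and 3 of the 16 tested chemokines. Of the 22 tested genes of the MHC class I and immunoproteasome list 0 were called, though all 22 were lower in value. DESeq2 called 10 of those 22 lower and limma-voom 14, where each called 4 of the chemokines. Of the 14901 genes tested, 38 passed the test at an adjusted p under 0.05 (0.255%), with 36 lower in the Hyal2 libraries than in the Cre libraries (0.242%) and 2 higher (0.0134%). All 36 were lower in every pair, where 9.86% of all genes were lower in all 4 pairs and 6.13% were higher in all 4. The fitted fold changes ranged from 1.22-fold to 5.81-fold lower. A fall here is a lower level with Hyal2 than with Cre. The mean log2 CPM of the GFP libraries lay below the Cre mean for all 36 genes and below the Hyal2 mean for 4. It was nearer to the Hyal2 mean than to the Cre mean for 35 of the 36, the exception being Slfn5. All of these counts depend on the Cre and Hyal2 values by which the genes were picked, and that pick favours a GFP mean below Cre. The share over all genes is not given for any of them. Which virus the differences come from was not tested. In 14 of the 36 the 4 Hyal2 libraries all lay below the 4 Cre libraries (1.04% of all genes tested did so). In bulk RNA, fewer responding cells and a weaker response in each cell cannot be told apart. Replicate 3 had the largest fall for 31 of the 36 and replicate 1 the smallest for 30. The calls rest on pairing: without the replicate block 0 genes were called lower, and 1 gene, Hyal2, higher. They also rest on single pairs, since 16 genes were called without replicate 2 and 1 without replicate 4, against 156 without replicate 1 and 105 without replicate 3.

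**Figure D2:**
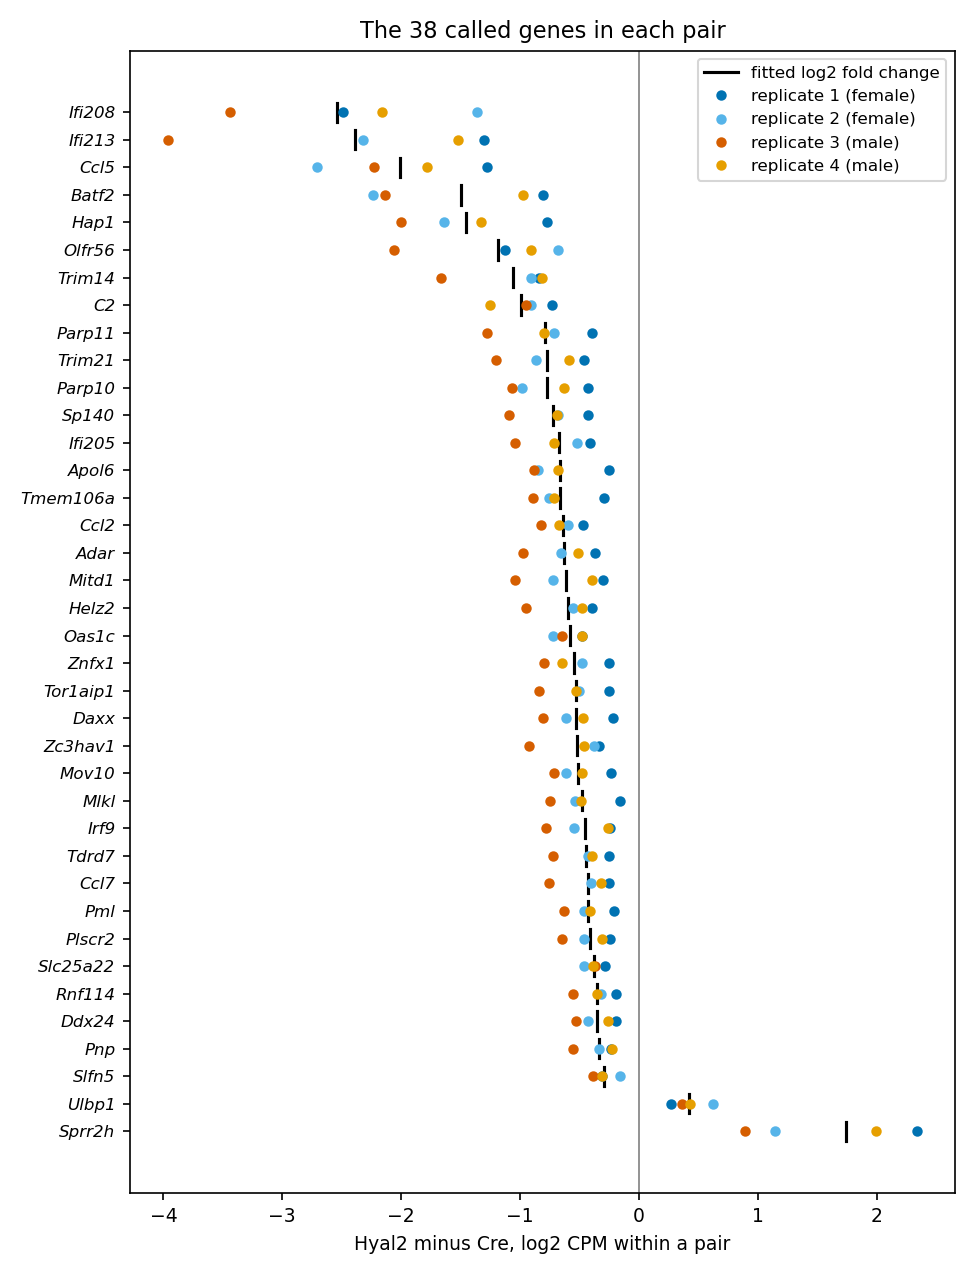
The 38 called genes, with the log2 difference in CPM (Hyal2 minus Cre) of each pair as a point and the fitted log2 fold change as a bar. The 36 genes called lower have all 4 points left of 0, and in 31 of them the point of replicate 3 is the farthest left.

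Promoter sequence is shown here because the genes that fell include many known targets of interferon. RefSeq promoter windows (build GRCm38.p6, from 250 bases before to 50 after the start) were found for 27 of the 36 genes called lower. The response element, spelled GAAANNGAAA on either strand, occurred in the windows of 10 of the 27 (37%), and in 3.87% of the 10902 tested genes with a window. Of the antiviral effectors 27 of 54 (50%) held it, of the GBP and IRG GTPases 9 of 10 (90%), of the MHC class I and immunoproteasome list 5 of 18 (27.8%), of the chemokines 2 of 9 (22.2%) and of the sensors and transcription factors 5 of 25 (20%). The related gamma-activated site, TTCNNNGAA, occurred in 4 of the 27 (14.8%) against 8.28% of tested genes with a window, and a kB site, GGGANNTTCC, in 0 of the 27 against 1.67%, though 3 of the 9 chemokines with a window held it (33.3%). All 3 motifs hold GAA or TTC on one strand or the other, so their matches can share bases. A gene with several starts was counted if any of its windows held the motif. A match describes letters in a window and does not show that a factor binds there.

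The stretches below are 60 bases each, written 5′ to 3′ along the gene's own strand, with 1 match in capitals; they come from the genes called lower whose match lies upstream of the start and keeps 25 bases on each side, leaving out windows at other starts of a gene. The matches of Oas1c and Parp11 are on the opposite strand, so the capitals show the reverse complement of the motif.
Ifi205, chr1:174031855-174031914: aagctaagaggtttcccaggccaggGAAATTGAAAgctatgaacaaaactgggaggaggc
Ifi208, chr1:173673582-173673641: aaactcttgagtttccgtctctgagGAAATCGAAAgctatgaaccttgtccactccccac
Ifi213, chr1:173599311-173599370: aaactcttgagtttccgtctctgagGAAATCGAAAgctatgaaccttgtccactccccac
Oas1c, chr5:120812594-120812653: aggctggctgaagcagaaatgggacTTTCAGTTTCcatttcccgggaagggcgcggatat
Slfn5, chr11:82951922-82951981: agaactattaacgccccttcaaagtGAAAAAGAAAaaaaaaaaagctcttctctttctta
Parp11, chr6:127446771-127446830: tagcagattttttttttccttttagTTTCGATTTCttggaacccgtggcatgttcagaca
In Oas1c another match overlaps the one shown. The other window of Parp11 holds no match. For genes with several windows only the first listed was used, which left out matches of Tdrd7 and Slc25a22 in later windows. The stretches of Ifi208 and Ifi213 are identical, so their matches are not independent of each other. Whether the counting split or shared reads between these family members was not tested, and their values are uncertain.

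Ccl5, a chemokine that draws T cells and monocytes, had the smallest p of all genes tested. It lay at 2.86, 4.88, 3.43 and 3.89 CPM in Cre replicates 1 to 4 and at 1.16, 0.719, 0.702 and 1.11 CPM in the Hyal2 libraries. All Hyal2 libraries were below all Cre libraries, a 4.03-fold fall (log2 fold change -2.01, SE 0.20, adjusted p = 0.00501). In the GFP libraries Ccl5 was at 1.37 ± 0.329 CPM (SD, n = 4). Ccl2, a chemokine that attracts monocytes, lay at 21.5, 28.03, 29.5 and 26.5 CPM with Cre and at 15.5, 18.6, 16.7 and 16.6 CPM with Hyal2. The groups again did not overlap, and Ccl2 fell by 0.64 on the log2 scale (SE 0.07, adjusted p = 0.00706). Its neighbour in function Ccl7 fell 1.35-fold, from 63.5 ± 13.8 to 46.5 ± 4.38 CPM (SD, n = 4, adjusted p = 0.0443). With GFP, Ccl2 was at 18.6 ± 2.07 CPM and Ccl7 at 47.4 ± 5.09 CPM (SD, n = 4). These 3 were the called members of 16 tested chemokines. Ccl8 was 1.34-fold lower in value (adjusted p = 0.138), and 6 of the 16 were lower in every pair. Cxcl10, a textbook interferon-induced chemokine named here after its values were seen, lay at 5.79 to 12.6 CPM with Cre and 0.570 to 4.37 CPM with Hyal2, but its adjusted p was 0.513. Cxcl12, also named after its values were seen, was at 577 ± 106 CPM with Cre and 635 ± 161 CPM with Hyal2 (SD, n = 4, adjusted p = 0.754).

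The antiviral effectors are the genes that interferon switches on to block viral RNA and protein. Of 69 tested, 68 were lower in value in the Hyal2 libraries, 66 of them in every pair, with a median log2 difference of -1.004 where the median of all genes tested was 0.00. The edgeR test called 7 lower (10.1% of the list) and 0 higher, and 63 were lower at an unadjusted p under 0.05 (91.3%, against 4.58% of all genes tested). DESeq2 called 52, limma-voom 60 and edgeR without robust estimation 61, and edgeR without the replicate block 0. The members called by edgeR were Adar, Ifi205, Helz2, Trim21, Oas1c, Znfx1 and Slfn5.

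Adar edits adenosine in double-stranded RNA. It lay at 124, 140, 156 and 187 CPM in Cre replicates 1 to 4 and at 96.1, 89.2, 79.4 and 131 CPM in the Hyal2 libraries. The ranges overlapped only through replicate 4 of the Hyal2 group and replicate 1 of the Cre group, and Adar fell 1.54-fold (log2 fold change -0.63, SE 0.08, adjusted p = 0.0122). With GFP it was at 102 ± 7.03 CPM (SD, n = 4). Trim21, an antibody receptor and ubiquitin ligase of the cytosol, lay at 18.7, 20.7, 30.5 and 33.6 CPM with Cre and at 13.6, 11.3, 13.3 and 22.4 CPM with Hyal2. It fell 1.71-fold (log2 fold change -0.77, SE 0.10, adjusted p = 0.0134), and replicate 4 was again the highest of each group. Oas1c belongs to the oligoadenylate synthetases, which respond to double-stranded RNA. Its Cre libraries lay at 8.96, 9.65, 10.6 and 11.2 CPM and its Hyal2 libraries at 6.42, 5.83, 6.71 and 8.04 CPM, so the groups did not overlap. Oas1c fell by 0.58 on the log2 scale (SE 0.08, adjusted p = 0.0142). Slfn5, of the Schlafen family, had the smallest called fall, 1.22-fold, from 456 ± 185 to 368 ± 137 CPM (SD, n = 4, adjusted p = 0.0443).

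Several well-known antiviral effectors had larger differences that did not pass the edgeR test with the block and robust estimation, and those described next were chosen after their values were seen. Mx1, a GTPase that traps incoming viruses, lay at 4.76, 6.33, 13.5 and 17.4 CPM with Cre and at 1.54, 1.61, 1.03 and 5.73 CPM with Hyal2 (log2 fold change -2.14, SE 0.40, adjusted p = 0.350). Within pairs it differed by -1.61, -1.95, -3.66 and -1.60 on the log2 scale, with replicate 3 apart from the others. Isg15, a ubiquitin-like modifier, lay at 282, 397, 443 and 481 CPM with Cre and at 163, 94.8, 90.7 and 239 CPM with Hyal2. Its groups did not overlap, with a log2 fold change of -1.53 (SE 0.37, adjusted p = 0.571). Ifit3, which binds viral RNA together with its relatives, was at 419 ± 175 CPM with Cre and 128 ± 88.3 CPM with Hyal2 (SD, n = 4, adjusted p = 0.523). Rsad2, also called viperin, was at 39.4 ± 14.8 and 11.3 ± 8.82 CPM (SD, n = 4, adjusted p = 0.681). Ifi27 was the 1 effector higher in value with Hyal2, at 68.96 ± 21.4 CPM with Cre and 108 ± 20.99 CPM with Hyal2 (SD, n = 4, adjusted p = 0.719).

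Among the genes that sense nucleic acid and relay the interferon signal, Batf2 and Irf9 were called lower by edgeR, of 30 tested. DESeq2 called 9, limma-voom 10 and edgeR without robust estimation 10, and edgeR without the replicate block 0. Irf9, the DNA-binding partner of Stat2, lay at 81.9, 88.4, 104 and 113 CPM with Cre and at 69.2, 60.7, 60.9 and 93.9 CPM with Hyal2. It fell 1.37-fold (adjusted p = 0.0494), close to the threshold, and replicate 4 of the Hyal2 group lay within the Cre range. Batf2, an interferon-induced transcription factor, fell by 1.49 on the log2 scale (SE 0.26, adjusted p = 0.0419), with means of 1.58 ± 0.489 CPM for Cre and 0.566 ± 0.317 CPM for Hyal2 (SD, n = 4). Irf1 was 1.27-fold lower in value (adjusted p = 0.0652) and Ddx58, the RNA sensor RIG-I, 1.69-fold (adjusted p = 0.208). Irf7 was at 295 ± 97.4 CPM with Cre and 101 ± 51.9 CPM with Hyal2 (SD, n = 4, adjusted p = 0.686). The receptor subunits Ifnar1 and Ifnar2 had log2 differences of 0.03 and -0.09, the adaptor Mavs 0.02 and the kinase Tbk1 -0.05, none of them called. The list's median was -0.11 and 12 of 30 were lower in every pair. Values of Irf7, Ifnar1, Ifnar2, Mavs and Tbk1 were singled out after they were seen.

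Of 21 genes in the table named as interferons of types I, II or III, 12 had 0 counts in all 8 libraries, and 7 had 1 count each. Ifnb1, the first type I interferon that fibroblasts release, had 11, 14, 1 and 4 counts in Cre replicates 1 to 4 and 1, 0, 0 and 0 counts in the Hyal2 libraries, 30 against 1 in all, in libraries that were deeper in the Cre group for replicates 1, 2 and 4. These counts were below the filter and were not tested. Ifnz, of the limitin group of type I interferons, was the 1 interferon gene tested, at 0.336 ± 0.111 CPM with Cre and 0.215 ± 0.0697 CPM with Hyal2 (SD, n = 4). It was lower in value in every pair (log2 fold change -0.62, SE 0.29, adjusted p = 0.723). It has close relatives in the annotation that could share its reads, so its values are uncertain.

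The GBP and IRG GTPases, which attack the vacuoles of intracellular microbes and respond to interferon gamma as well as to type I interferon, were lower in value in all 17 tested, in 15 of them in every pair. Their median log2 difference was -1.14, and all 17 had an unadjusted p under 0.05, yet 0 were called by edgeR, against 14 by DESeq2 and 13 by limma-voom. Gbp5 came closest, at 12.9, 15.2, 22.9 and 28.02 CPM with Cre and 6.499, 5.16, 5.02 and 12.04 CPM with Hyal2. Its groups did not overlap (log2 fold change -1.47, SE 0.19, adjusted p = 0.0627). Gbp4 (1.26 ± 0.835 CPM with Hyal2 against 4.07 ± 2.49 with Cre, adjusted p = 0.0673) and Gbp2 (59.6 ± 25.04 against 132 ± 53.4 CPM, adjusted p = 0.115) were lower in value in every pair (SD, n = 4). Tgtp1 and Tgtp2 are near-identical copies whose reads the counting may have split, so the 3.44-fold lower value of Tgtp1 (adjusted p = 0.0825) is uncertain.

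Over the 3 interferon lists, 9 of 116 tested genes were called lower (7.76%, against 0.242% of all genes), and 109 were lower in value. The median of the fitted log2 fold changes was -0.93, and the median within pairs was -0.455, -0.94, -1.59 and -0.68 in pairs 1 to 4. The number called depended on the fit: 75 with DESeq2, 83 with limma-voom and 85 with edgeR without robust estimation, but 0 without the replicate block or without replicate 4, and 2 without replicate 2. The lists were not chosen independently of these data.

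All 22 tested members of the MHC class I and immunoproteasome list were lower in value with Hyal2, 19 of them in every pair, with a median of -0.57, and 0 were called by edgeR, where 20 had an unadjusted p under 0.05; DESeq2 called 10 and limma-voom 14. Psme2, a subunit of the proteasome activator, lay at 84.8, 93.8, 111 and 105 CPM with Cre and at 79.6, 58.4, 71.9 and 78.0 CPM with Hyal2. Those ranges did not overlap, and its adjusted p was 0.0593. Psmb9, a catalytic subunit of the immunoproteasome, was 1.99-fold lower in value (adjusted p = 0.0669). Tap2, a subunit of the peptide transporter into the endoplasmic reticulum, was 1.32-fold lower (adjusted p = 0.0669). The list's median within pairs was -0.09 in replicate 1 and -0.75, -0.97 and -0.52 in the others.

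The other 24 genes called lower stand in none of the interferon, antigen presentation or chemokine lists, though several are known to respond to interferon. Among those with at least 5 CPM, Parp11 and Parp10, enzymes that add single ADP-ribose units to proteins, fell by 0.79 (SE 0.12, adjusted p = 0.0490) and 0.77 (SE 0.09, adjusted p = 0.0122) on the log2 scale. Parp11 lay at 25.9, 33.7, 38.03 and 47.7 CPM with Cre and at 19.7, 20.5, 15.7 and 27.5 CPM with Hyal2. Only replicate 4 of the Hyal2 group and replicate 1 of the Cre group crossed, and with GFP it was at 23.9 ± 4.45 CPM (SD, n = 4). Sp140, a chromatin reader of the speckled protein family, fell 1.65-fold, Tmem106a, a membrane protein, 1.58-fold, and Apol6, of the apolipoprotein L family, 1.58-fold. Mitd1, which acts in the last step of cell division, fell 1.53-fold, from 19.3 ± 2.80 to 12.7 ± 2.48 CPM (SD, n = 4, adjusted p = 0.0443).

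The remaining called genes have smaller falls or lower levels. Pml and Daxx, the core protein of PML nuclear bodies and the histone chaperone it recruits, fell 1.35-fold and 1.44-fold. Mov10 and Zc3hav1, RNA-binding proteins that restrict viruses, fell 1.42-fold and 1.44-fold. Mlkl, which ruptures the plasma membrane in necroptosis, fell 1.39-fold, from 60.3 ± 10.3 to 43.2 ± 7.61 CPM (SD, n = 4, adjusted p = 0.0350). Tor1aip1 (1.44-fold), Tdrd7 (1.36-fold), Plscr2 (1.33-fold), Slc25a22 (1.30-fold), Rnf114 (1.28-fold), Ddx24 (1.28-fold) and Pnp (1.26-fold) also fell. Below 5 CPM in both groups were Ifi208, Ifi213, Hap1, Olfr56, Trim14 and the complement gene C2, besides Ccl5 and Batf2. Ifi208 had 46, 41, 53 and 115 counts with Cre and 2, 7, 4 and 19 with Hyal2. Several of these share ground with other genes in the annotation: Olfr56 overlaps Ifi47, Pnp overlaps Pnp2, Parp10 overlaps Plec and Irf9 overlaps Rnf31 on the same strand, and Trim14 overlaps Nans, Mitd1 overlaps Lipt1 and Tor1aip1 overlaps Tor1aip2 on the opposite strand. These are overlaps of whole annotated spans, introns included, so how many reads were shared is not known. No strand setting is stated, and none would separate the pairs on the same strand.

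Higher genes were few. Ulbp1, a stress ligand that natural killer cells recognise, lay at 18.4, 18.3, 18.3 and 18.7 CPM with Cre and at 22.2, 28.3, 23.5 and 25.3 CPM with Hyal2. The groups did not overlap, and it rose by 0.43 on the log2 scale (SE 0.07, adjusted p = 0.0342). In the GFP libraries it was at 23.8 ± 1.59 CPM (SD, n = 4), near the Hyal2 values. The other gene called higher, Sprr2h, an epidermal envelope gene, rested on 38, 80, 7 and 10 counts with Cre and 80, 89, 16 and 36 with Hyal2. Next in order of p came Rcan2, a regulator of calcineurin (13.3 ± 1.13 against 17.1 ± 1.61 CPM, SD, n = 4, adjusted p = 0.0645), and Fmo2, a flavin monooxygenase (20.6 ± 16.1 against 26.5 ± 21.9 CPM, SD, n = 4, adjusted p = 0.0865). Both were higher in every pair without passing the test.

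The pairs differed in the size of the interferon difference. The mean log2 CPM over the 116 genes of the 3 lists was 5.03, 5.31, 5.63 and 5.82 in Cre replicates 1 to 4 and 4.60, 4.39, 4.16 and 5.15 in the Hyal2 libraries. In the GFP libraries of the same replicate numbers it was 4.52, 4.69, 4.81 and 5.15. Cre was the highest of the 3 viruses in every replicate. Set against GFP, the median over the lists was 0.50, 0.67, 0.83 and 0.67 for Cre and 0.05, -0.28, -0.72 and 0.02 for Hyal2 in replicates 1 to 4; both use the same GFP libraries, so they are not independent of each other. Replicate 3, with the largest interferon difference, had the lowest Hyal2 transcript of the Hyal2 group, and whether the amount of virus had a part in these values was not tested.

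**Figure D3:**
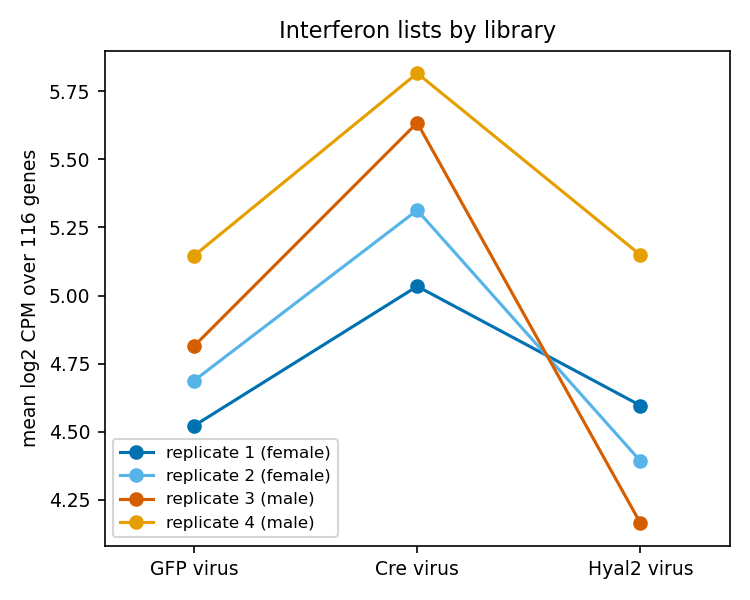
Mean log2 CPM over the 116 tested genes of the 3 interferon lists for each library, by virus, with lines joining libraries of the same replicate number. Each line peaks at the Cre virus, and the drop to the Hyal2 virus is steepest in replicate 3 (from 5.63 to 4.16) and smallest in replicate 1 (from 5.03 to 4.60).

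A difference between the sexes in the Hyal2 against Cre effect was tested as a contrast of the 2 male and the 2 female pairs. It called 0 genes with edgeR (239 had an unadjusted p under 0.05), and 0 with DESeq2 (55 unadjusted) and limma-voom, with 2 pairs per sex. Leaving out 1 pair gave between 1 and 465 calls, in fits that rest on a single pair of one sex. Apod, a lipid carrier of resting fibroblasts, was 1 of the 239 genes (unadjusted edgeR p of the sex difference 6.92e-04) and was not called. Its log2 differences were -0.75 and -1.19 in the female pairs and -2.26 and -1.64 in the male pairs. It lay at 4.60, 5.24, 18.1 and 18.4 CPM with Cre and at 2.72, 2.28, 3.75 and 5.87 CPM with Hyal2. Its 2.89-fold lower value with Hyal2 did not pass the test over all pairs either (adjusted p = 0.113).

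Of 17 tested leukocyte and macrophage markers, 15 were lower in value with Hyal2, with a median of -0.12. By edgeR 0 were called (4 had an unadjusted p under 0.05), by limma-voom 0 and by DESeq2 1. Fcgr1, an antibody receptor that interferon also induces, had the smallest p (2.64 ± 0.662 against 1.53 ± 0.837 CPM, SD, n = 4, adjusted p = 0.0652), and the T cell gene Cd3e was at 0. Fitted log2 differences ranged from -0.83 to 0.09. Csf1r, the macrophage growth factor receptor, was at 18.8 ± 5.89 CPM with Cre and 18.8 ± 6.35 CPM with Hyal2, and Lyz2 at 216 ± 85.6 and 214 ± 65.9 CPM (SD, n = 4, both named after their values were seen and among the members nearest to 0). C1qb and Cd68 were 1.17-fold and 1.18-fold lower in value (adjusted p = 0.242 and 0.533). The part of leukocytes in the interferon difference was not tested. Genes of the NF-kB and inflammatory list had a median of -0.06, with 22 of 29 lower in value and 0 called by edgeR, DESeq2 or limma-voom (2 at an unadjusted p under 0.05).

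**Figure D4:**
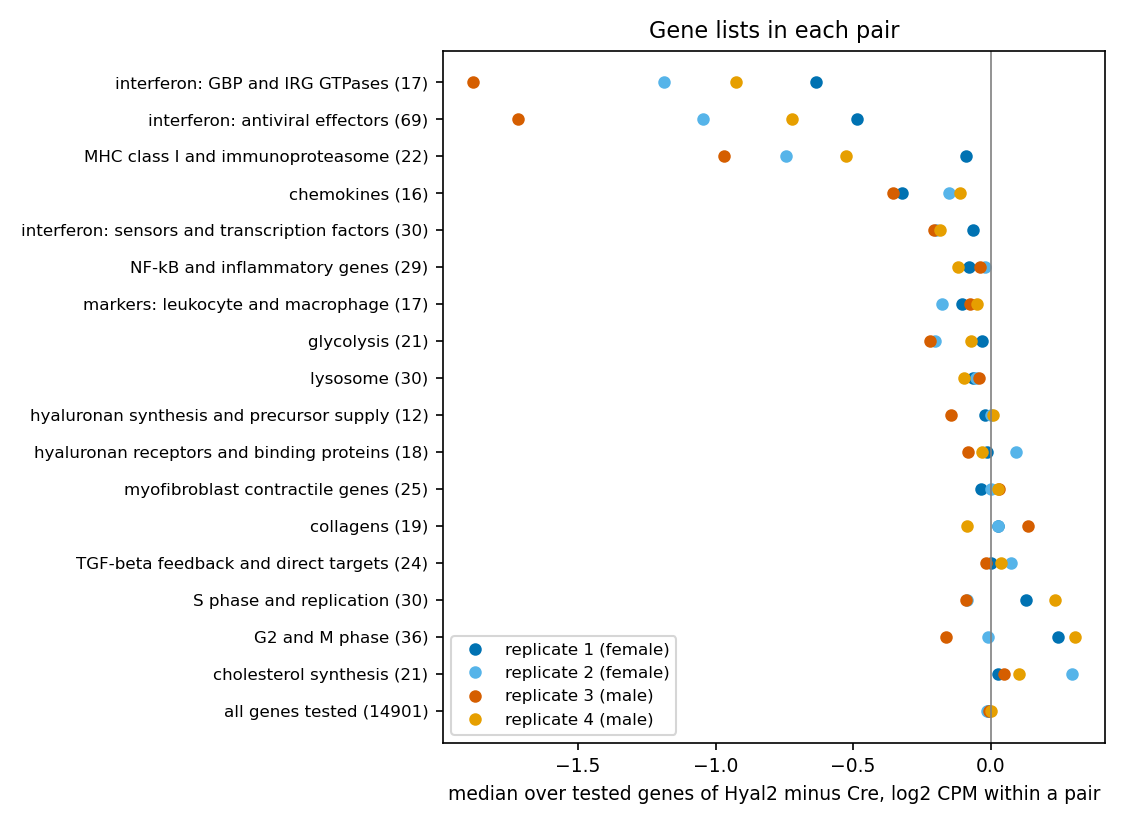
Median log2 difference in CPM (Hyal2 minus Cre) over the tested genes of 17 lists and of all genes, 1 point per pair, with the number of tested genes in brackets. The GBP and IRG GTPases lie from -1.88 to -0.64 and the antiviral effectors from -1.72 to -0.49, while the collagens lie from -0.09 to 0.14.

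Hyal2 itself was called by DESeq2 and limma-voom but not by edgeR with the replicate block and robust estimation. No other gene of hyaluronan synthesis or breakdown was called by edgeR, DESeq2 or limma-voom. Of 12 tested genes of synthesis and precursor supply 0 were called (1 had an unadjusted p under 0.05), with a median of -0.04. Has2, the main synthase of fibroblasts, lay at 35.7, 55.4, 31.2 and 34.1 CPM with Cre and at 36.1, 67.1, 23.9 and 32.8 CPM with Hyal2. The pairs went both ways, and its log2 fold change was -0.03 (SE 0.09, adjusted p = 0.963). Has1 was at 1.11 ± 1.07 and 0.921 ± 0.687 CPM (SD, n = 4, adjusted p = 0.909), and Has3 was below the filter. Pgm1, which supplies glucose phosphate for the UDP-sugars, was lower in value in all 4 pairs (log2 fold change -0.15, SE 0.05, adjusted p = 0.506). Ugdh and Ugp2, which make UDP-glucuronate and its precursor, had values of -0.07 and 0.04. For the enzymes of the other sugar, UDP-N-acetylglucosamine, log2 fold changes were -0.06 for Gfpt2, 0.03 for Gfpt1, 0.01 for Gnpnat1, -0.06 for Pgm3 and -0.02 for Uap1. The nucleotide sugar transporters Slc35d1 and Slc35d2 had values of -0.05 and 0.14.

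Among the genes of breakdown, 8 were tested, and Hyal4, Hyal5, Hyal6 and Spam1 were at 0. Cemip, a hyaluronan-depolymerising protein of fibroblasts, lay at 315, 229, 397 and 500 CPM with Cre and at 292, 346, 542 and 501 CPM with Hyal2. Replicates 2 and 3 were higher with Hyal2, replicate 1 was lower and replicate 4 about level, and its log2 fold change was 0.23 (SE 0.12, adjusted p = 0.787). Hyal1, the lysosomal hyaluronidase, was at 11.01 ± 2.05 and 10.5 ± 1.88 CPM (SD, n = 4, log2 fold change -0.07, SE 0.08). Hyal3 was at 0.297 ± 0.0406 and 0.309 ± 0.0474 CPM. Cemip2 (0.02), Gusb (-0.06) and Hexa (-0.05), the latter pair being lysosomal enzymes that trim the fragments, had small log2 fold changes with standard errors of 0.05 to 0.06.

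**Figure D5:**
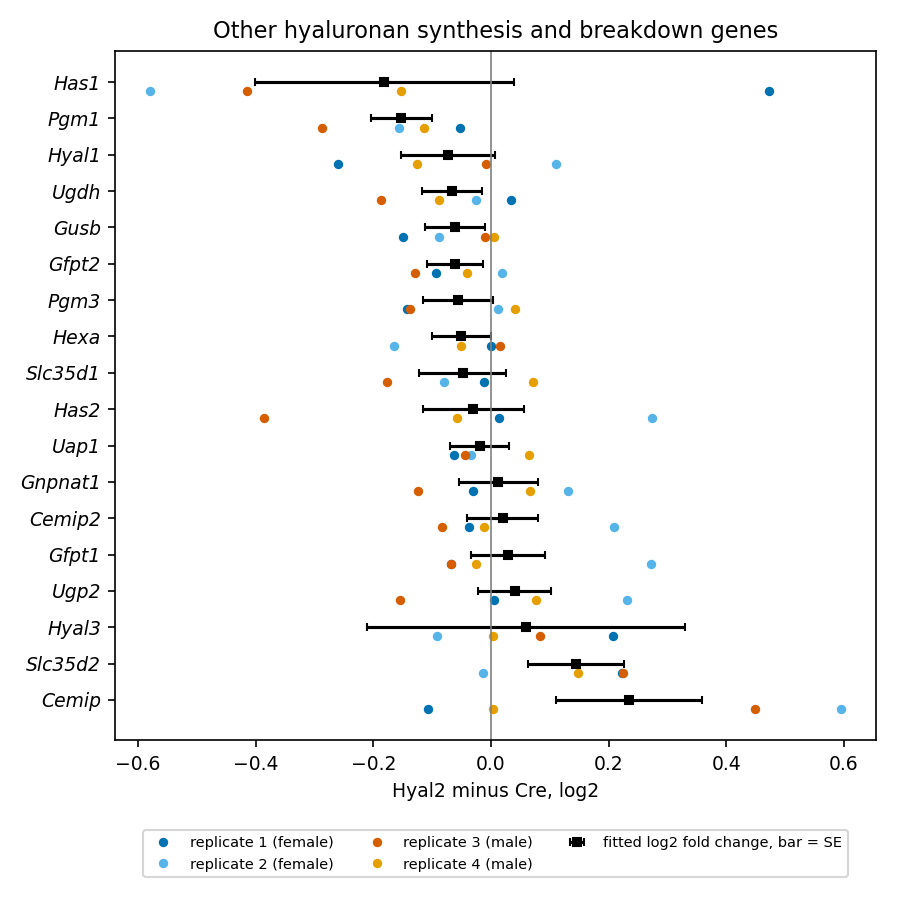
Log2 fold change (squares, with SE) and the log2 difference of each pair (points) for tested hyaluronan synthesis and breakdown genes other than Hyal2. Pgm1 has all 4 points below 0, and Has1 and Has2 have points on both sides.

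Of 18 tested receptors and binding proteins of hyaluronan 0 were called by edgeR (2 higher and 4 lower had an unadjusted p under 0.05), while DESeq2 and limma-voom called 1 each. Ptx3, a pentraxin that crosslinks hyaluronan through Tnfaip6, came closest, at 396, 481, 330 and 287 CPM with Cre and 351, 407, 232 and 234 CPM with Hyal2. It was lower in value in each pair (log2 fold change -0.30, SE 0.06, adjusted p = 0.0645). Tnfaip6, which transfers protein chains onto hyaluronan, was also lower in every pair (log2 fold change -0.17, SE 0.06, adjusted p = 0.522). Tlr4 was higher in value in every pair (0.23, SE 0.08, adjusted p = 0.556), and Hmmr, which also acts in mitosis, in 3 of 4 (0.27, adjusted p = 0.496). The receptor Cd44, singled out after its value was seen, had a log2 fold change of 0.00 (SE 0.05, adjusted p = 0.995).

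Of 14 tested genes that lie beside Hyal2 on its chromosome, 0 were called by edgeR, DESeq2 or limma-voom (1 at an unadjusted p under 0.05), and the median was -0.04. Rbm6, a splicing regulator, had the smallest p and was lower in value in every pair (log2 fold change -0.11, SE 0.05, adjusted p = 0.700), and Naa80, an acetyltransferase of actin, was at 29.03 ± 3.91 CPM with Hyal2 (SD, n = 4) against a mean of 31.8 CPM with Cre (adjusted p = 0.734). Rassf1 and Cyb561d2 each had a log2 fold change of -0.08.

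Matrix and contractile genes, by which fibroblast activation is usually judged, had 0 calls by edgeR in each of the lists described next. The 19 collagens had a median of 0.04, from -0.09 to 0.24, with 0 at an unadjusted p under 0.05 and 0 called by DESeq2 or limma-voom. The 25 contractile genes of myofibroblasts had a median of -0.01 and the 24 TGF-beta targets 0.04; DESeq2 and limma-voom also called 0 of each. An unadjusted p under 0.05 was found for 0 contractile genes, and for 2 TGF-beta targets higher and 1 lower. Among 30 tested matricellular and elastic fibre genes DESeq2 called 2 and limma-voom 1. Tnc, tenascin C, a matricellular protein of injured tissue, had the smallest p of them. It lay at 454, 629, 335 and 522 CPM with Cre and at 405, 502, 261 and 442 CPM with Hyal2, lower in every pair (log2 fold change -0.27, SE 0.05, adjusted p = 0.0539). Ltbp1, which holds latent TGF-beta in the matrix, was 1.20-fold lower in value (adjusted p = 0.209), Thbs1 1.10-fold lower (adjusted p = 0.510) and Eln, elastin, 1.13-fold higher (adjusted p = 0.626). Of 23 proteoglycans edgeR called 0 (1 higher and 4 lower at an unadjusted p under 0.05), and DESeq2 and limma-voom 1 each. Agrn, agrin, lay at 232 to 373 CPM with Cre and 134 to 225 CPM with Hyal2 without overlap (log2 fold change -0.70, SE 0.17, adjusted p = 0.461). Sdc3 (-0.27, adjusted p = 0.130), Sdc4 (-0.13, adjusted p = 0.551) and Aspn (0.22, adjusted p = 0.683) did not pass the test.

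Of 31 proteases and their inhibitors edgeR and limma-voom called 0 (1 higher and 4 lower at an unadjusted p under 0.05 by edgeR) and DESeq2 1. Timp1, the inhibitor of matrix metalloproteinases, was 1.21-fold lower in value (adjusted p = 0.126) and lower in every pair. Mmp13 was 2.04-fold higher in value in every pair but at 0.417 ± 0.423 and 0.799 ± 0.540 CPM (SD, n = 4, adjusted p = 0.242). Mmp3 had a log2 fold change of -0.16 (adjusted p = 0.459). In the list of 29 resting fibroblast genes the median was 0.00, DESeq2 called 3 and limma-voom 4 lower, and the members with the smallest p were C4b, a complement gene, 1.30-fold lower in value (adjusted p = 0.0645), Apod, Ly6c1, 1.69-fold lower (adjusted p = 0.234), and Serping1, 1.11-fold lower (adjusted p = 0.411).

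In 2 lists of metabolism most members differed in 1 direction by small values, with 0 called by edgeR, DESeq2 or limma-voom. Of 21 glycolysis genes, 18 were lower in value with Hyal2 and 13 had an unadjusted p under 0.05, with a median of -0.12. Slc2a1, the glucose transporter, lay at 189, 218, 148 and 177 CPM with Cre and 183, 187, 119 and 164 CPM with Hyal2 (log2 fold change -0.17, SE 0.05, adjusted p = 0.450), lower in each pair. Hk2, Pfkp and Hk1 had values of -0.20, -0.15 and -0.16 (adjusted p = 0.502, 0.507 and 0.510). Of 21 cholesterol synthesis genes, 20 were higher in value, 10 of them in every pair and 7 at an unadjusted p under 0.05, with a median of 0.10. Insig1, a sterol sensor, was 1.16-fold higher (adjusted p = 0.316), and the enzymes Msmo1, Sqle and Idi1 were 1.21-fold, 1.20-fold and 1.29-fold higher (adjusted p = 0.332, 0.522 and 0.572). Lysosomal genes were lower in value in 25 of 30, with a median of -0.05 and 0 called by edgeR (5 at an unadjusted p under 0.05), 2 by DESeq2 and 1 by limma-voom. Gla, the enzyme lacking in Fabry disease, was lower in value in every pair, 1.25-fold in the fit (adjusted p = 0.0652). Of the others, Npc2 was 1.19-fold lower (adjusted p = 0.189) and Glb1 1.09-fold (adjusted p = 0.625).

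Cell cycle genes went different ways in different pairs. Of 36 genes of the G2 and M phases, 33 had a fitted value above 0, but the median within pairs was 0.24, -0.01, -0.16 and 0.30 in replicates 1 to 4, and 0 were called by edgeR, DESeq2 or limma-voom (2 at an unadjusted p under 0.05). Mki67, the proliferation antigen, lay at 25.2, 34.7, 26.5 and 23.8 CPM with Cre and 33.98, 40.8, 25.8 and 34.2 CPM with Hyal2 (log2 fold change 0.29, SE 0.08, adjusted p = 0.324). Replicate 3 was the only pair without a higher value. Ttk and Ect2, a mitotic kinase and a regulator of cytokinesis, had values of 0.35 and 0.19 (adjusted p = 0.743 for both). Of 30 S phase genes 19 were higher in value, with 0 called by the same tools (3 at an unadjusted p under 0.05), led by Ccne2, cyclin E2, higher in every pair at 1.51 ± 0.397 and 2.41 ± 0.738 CPM (SD, n = 4, adjusted p = 0.108). Pola1, Rrm2 and Pole had values of 0.25, 0.21 and 0.14 (adjusted p = 0.509, 0.577 and 0.806).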

How the data were processed

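RNA-seq of mouse cardiac fibroblasts was deposited as 1 table of whole-number read counts per gene for 20 libraries, of which 8 were tested here. The authors used FastQC 0.10.1, HTSeq 0.10.0 and build mm39, per the submitters' processing notes; no aligner, annotation release or strand setting is named in these sources. All columns were mapped to samples (0 unmapped). The gene counts of the 4 Hyal2 and 4 Cre libraries were fitted in edgeR 4.0.16 (R 4.3.3) with TMM factors, its filter on low counts, the replicate number as a block and robust quasi-likelihood tests. Adjusted p values are Benjamini-Hochberg over all genes tested, and a gene was called at an adjusted p under 0.05. Positive log2 fold changes mean higher with the Hyal2 virus, and the SE was derived from the fold change and the F statistic. CPM use TMM-scaled totals, and log2 CPM add a prior count of 2. Values of the GFP libraries, and the log2 means and medians shown with them, use TMM factors of the 12 libraries without TGFB. Their scale can differ from that of the CPM of the 8 libraries. The fit was also run on simulated counts. The changes set there were larger than most of those called here, so smaller ones were not covered.

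The pairing comes from the library names, which carry 1 prefix per replicate number in the labels' descriptions. Deviations from the group means correlated within pairs at 0.528, 0.667, 0.623 and 0.653, each library best with its own number. Cre and Hyal2 libraries of different replicates with the same sex label also correlated, at 0.333 to 0.465. Those with different sex labels stood at -0.6308 to -0.3035, so the correlation was not confined to the pairs. Whether a prefix marks an animal, an isolate or a batch, and whether same-numbered cultures were otherwise separate, is not stated. The p values of the fit with the block therefore measure only how the Hyal2 minus Cre difference varied among these pairs. No 2 replicates were identical or within sampling noise. The value of 3 counts given as a depth limit covers counting error only.

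Named genes are Hyal2, up to 10 called genes per direction with the largest change among those with at least 5 CPM and 1 sign in all 4 pairs (the 3 with the smallest p where fewer than 3 were called), the members with the smallest p (up to 4) of every list described, and all tested hyaluronan synthesis and breakdown genes; some genes that this rule names are not reported here. The comparison, lists and members were chosen with earlier results of these data known. List symbols matched the table for 806 of 807 entries, through GENCODE M21 names. Alternatives were no block, other size factors, DESeq2 1.42.0, limma-voom (limma 3.58.1), other filters, more libraries in the fit, thinning and leaving out each replicate; edgeR without robust estimation was added after seeing the data.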

Additional observations from a re-analysis of the deposited data

Results flagged for a closer look

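Values far from the other 3 of their group were found in 18 of 345 groups of 4 examined (CPM of each named gene in the Cre and in the Hyal2 libraries, and its 4 log2 differences within pairs), and chance gives about 1 in 20. In the Hyal2 libraries, replicate 4 stood above the others for Ifi205 (28.96 CPM, others 16.91 to 18.36), Gbp2 (96.76 CPM, others 42.69 to 51.06), Tor1aip1 (222.8 CPM, others 148.2 to 155.8) and Trim14 (2.681 CPM, others 0.7189 to 0.9572). Replicate 3 stood below the others for Pgm1 (146.5 CPM, others 191.6 to 199.7) and Rnf114 (54.37 CPM, others 65.79 to 67.1). Among the Cre libraries, Mitd1 was low in replicate 1 (15.12 CPM, others 20.52 to 21.03), Ugp2 and Hmmr were high in replicate 2 (98.81 CPM, others 90.24 to 90.9, and 13.43 CPM, others 7.823 to 8.769), and Npc2 was high in replicate 3 (858 CPM, others 747.6 to 750.6).

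Within pairs, the log2 difference of replicate 1 was nearest to 0 for Psme1 (-0.03421, others -0.4655 to -0.4225), Sdc3 (-0.03316, others -0.3761 to -0.3205) and Glb1 (-0.01604, others -0.1694 to -0.1442). Replicate 3 differed from the other pairs for Trim14 (-1.665, others -0.9069 to -0.8164), Pfkp (-0.2655, others -0.1217 to -0.1021) and Pola1 (-0.02138, others 0.3183 to 0.3502). Gfpt1 stood apart in replicate 2 (0.2717, others -0.0685 to -0.02481) and Eln in replicate 4 (-0.1242, others 0.2465 to 0.3197).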

How the results depend on the processing

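The 38 calls (36 lower, 2 higher, 9 in the interferon lists) became 176 with DESeq2 (169 lower, 7 higher, 75 interferon), 170 with limma-voom (165, 5, 83), 177 without robust estimation (172, 5, 85), 202 without a filter (178, 24, 38), 156 with all 20 libraries (153 lower, 80 interferon), 125 with 12 libraries (119, 6, 46) and 65 after thinning (62 lower, 19 interferon). A mean of at least 1 CPM left 27 calls (26 lower, 1 higher, 7 interferon). Without the replicate block there was 1 call (0 lower, 1 higher, 0 interferon). Leaving out 1 replicate pair gave 1 to 156 calls (1 to 145 lower, 0 to 11 higher, 0 to 58 interferon), lowest without replicate 4. The cause was not tested. The sex difference had 5 calls without a filter and 1 to 465 with a pair left out. All 38 genes were also called by DESeq2 and limma-voom, and the interferon median stayed between -1.08 and -0.71 in all settings run.

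Hyal2 passed the test at 6.48 without the replicate block, 6.38 with DESeq2, 6.48 with limma-voom, 6.46 with 20 libraries, 6.42 with 12 and 6.37 without robust estimation; leave-outs gave 6.00 to 6.83 and passed only without replicate 3. Signs turned for small values: Has2 was 0.0278 without the replicate block and Gnpnat1 -0.0116 after thinning. With a pair left out, Has1 ranged from -0.474 to 0.0853, Has2 from -0.132 to 0.0812, Ugp2 from -0.0205 to 0.105, Gfpt1 from -0.0498 to 0.0623, Gnpnat1 from -0.0251 to 0.0564, Cemip2 from -0.0404 to 0.0545 and Hyal3 from -0.00756 to 0.117. Genes under 5 CPM rest on fewer counts than the others. Among them, Ccl5 had 1203 counts over the 8 libraries.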
